A study of Drosophila melanogaster with 2 samples.

Results

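Abd-B-GFP peaks were examined at 41 Drosophila homeobox genes that lie outside the Hox complexes, of 13945 protein-coding genes on the main chromosome arms. The genes were chosen by name, as homeobox genes of nervous system, head, eye, appendage and body wall development, and the rule used no peak value. Another 42 homeobox genes outside the complexes and 12 homeobox genes within the Hox complexes served for comparison. The peaks come from chromatin immunoprecipitation with sequencing (ChIP-seq), in which an antibody against GFP recovers DNA fragments bound by a tagged protein. The samples were whole embryos aged 4 to 20 h of a transgenic line that stably expresses Abd-B with GFP at its C terminus, in 2 biological replicates that form 1 group. No untagged or mutant embryos were among the samples, so no peak below is a difference between conditions, and which cells of the embryo contributed a peak cannot be told from whole embryos.

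Abd-B is the most posterior of the Drosophila Hox proteins and patterns the posterior abdominal segments and the genitalia. Hox proteins are themselves homeodomain factors: the homeodomain binds short AT-rich DNA, commonly with a TAAT core, while proteins of the Abd-B type favour sites beginning with TTTAT. The homeobox genes outside the complexes encode factors of the same fold, in the LIM, POU, paired-like, sine oculis, TALE, NK and Bar classes among others. They give neurons, eye cells, limb segments and head regions their identity.

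Several kinds of peak list were available, and none gives read counts, so the sequencing depth is unknown here. The strictest list held 5033 peaks kept by the irreproducible discovery rate (IDR) procedure, which draws on how alike replicates rank peaks. These were the strongest 5033 of 29999 peaks called on the pooled replicates. Each replicate also had its own list, of 30000 peaks for replicate 1 and 29999 for replicate 2. The signal value of a peak is the authors' own, on a scale not given in the sources used here. It ran from 152.7 to 5202 in the IDR list and serves here for ordering the peaks of a list, with rank 1 the strongest. A promoter summit is a peak summit within 1 kb of a transcription start site (TSS), and the territory of a gene is its body with 10 kb on either side.

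Abd-B-GFP summits lay at the promoters of 9 of the 41 homeobox genes in the IDR list, or 22.0%. These genes were unc-4, oc, mirr, ro, B-H2, E5, Ptx1, PHDP and so. Over all protein-coding genes the share was 25.0%, so the homeobox share was close to the share over all promoters. A summit lay in the territory of 26 of the 41 genes (63.4%), against 64.8% of all genes. A summit farther than 1 kb from the TSS of every protein-coding gene lay in 11 territories (26.8%), against 22.7% of all genes. The other 42 homeobox genes had a promoter summit at 9 (21.4%), a territory summit at 29 (69.0%) and such a distal summit at 18 (42.9%). Of the 12 Hox complex genes, 3 (25.0%), 10 (83.3%) and 9 (75.0%) had them. On all of these counts the 41 genes lay within a few percentage points of all genes.

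**Figure D1:**
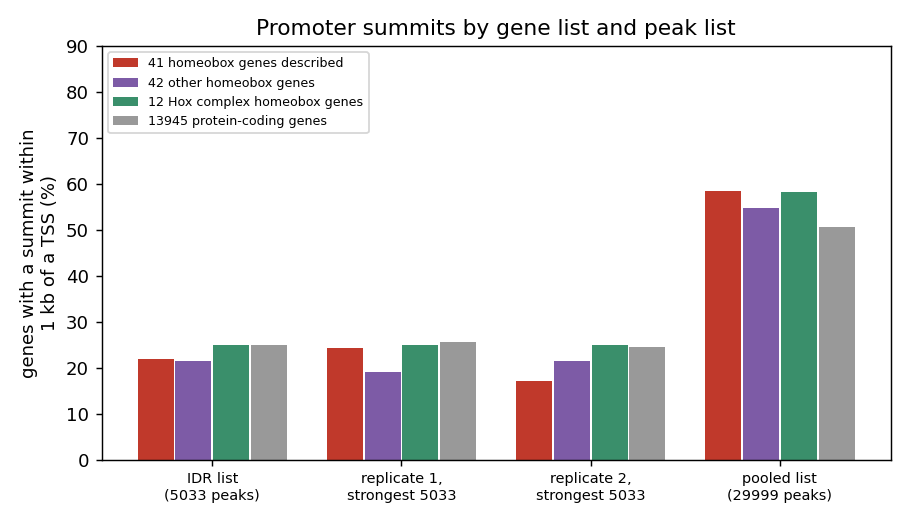
Share of genes (percent) with a promoter summit in the IDR list, the full pooled list and the strongest peaks of each replicate, for the 41 homeobox genes, the other 42, the 12 Hox complex genes and all 13945 protein-coding genes, as bars. The homeobox share was 22.0% against 25.0% in the IDR list and 58.5% against 50.6% in the pooled list.

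The 26 territories held 52 distinct summits. Of these, 10 lay at the promoter of the homeobox gene itself, 18 at the promoter of a neighbouring gene and 24 away from every promoter. Own promoters thus took 19.2% of the summits. Promoters of any gene took 28 of the 52 (53.8%), close to the 56.5% of the 4866 summits in the territories of all genes. The homeobox genes are long, with a median body of 11950 bp (range 1126 to 79148) against 2166 bp over all genes. The union of their territories covered 1455 kb and held 3.575 summits per 100 kb, against 4.104 for all genes, 5.028 for the other homeobox genes and 9.036 for the Hox complex genes.

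**Figure D2:**
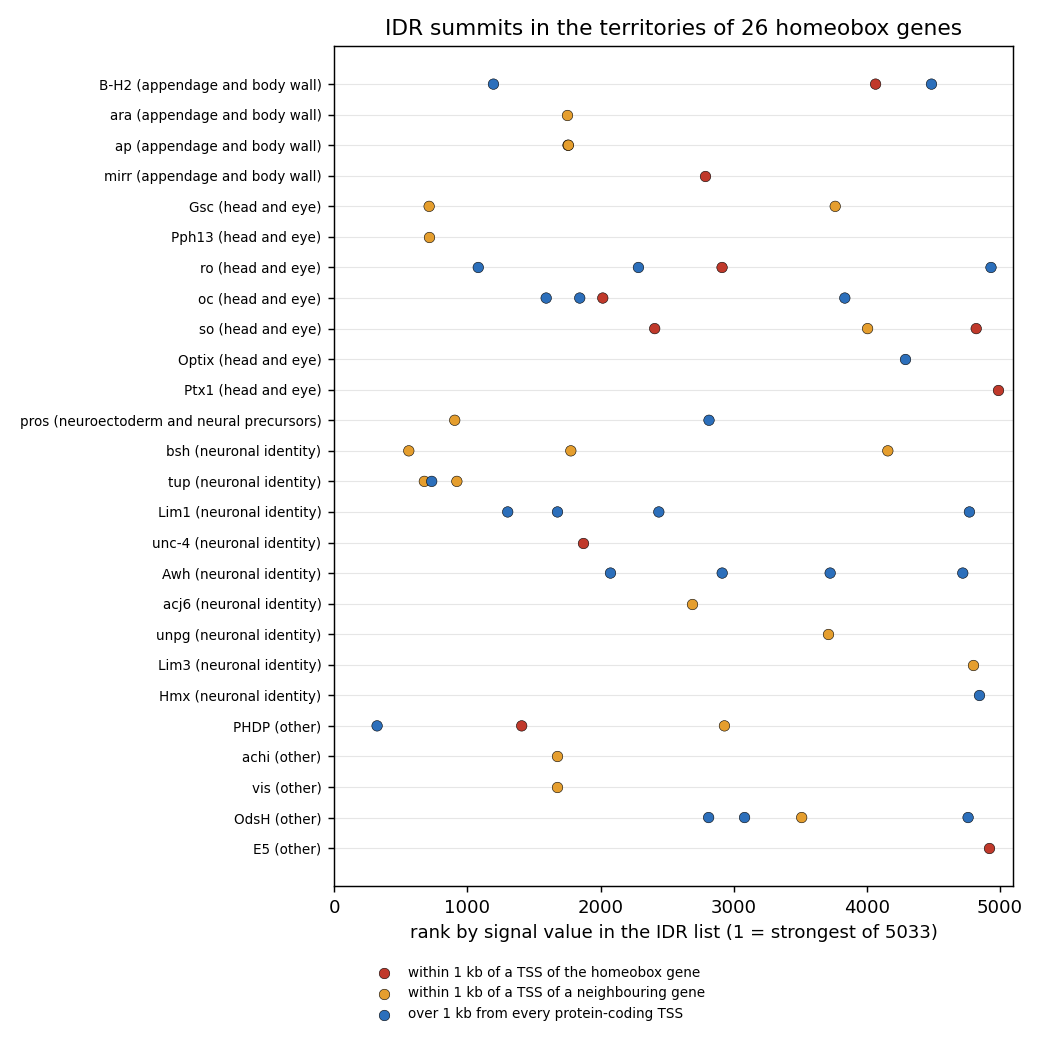
Rank in the IDR list (linear axis, rank 1 the strongest of 5033) of each of the 52 summits, by homeobox gene, for the 26 genes with a summit in their territory. Own-promoter summits started at rank 1408, and the 7 summits within the strongest 1000 lay at neighbouring promoters or away from promoters.

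The 10 promoter summits were of middle to low strength within the IDR list. Their median rank was 2849 and none was among the strongest 1000. At that cut-off 0 of 41 homeobox genes kept a promoter summit, against 7.41% of all genes, a count too small to read as a lower share. All 10 lay upstream of the homeobox gene's own TSS, at 194 to 557 bp with a median of 303 bp. For ro, at 325 bp, the TSS of the neighbouring gene T48 was nearer, at 238 bp. Among all 2749 IDR promoter summits, measured to the nearest TSS of any protein-coding gene, 82.0% were upstream, and the median distance was 154 bp. Within 200 bp of the TSS lay 2 of the 10 (20.0%), against 59.8% of all promoter summits.

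The promoter windows are printed for 6 of these genes because their base composition and GAGAG repeats are described below. Each is 201 bp of the RefSeq Release 6 genome (dm6), plus strand, centred on the summit, and none overlaps an annotated exon. The windows are chrX:17768230-17768430 for unc-4, chrX:8650862-8651062 for oc, chr3L:12692982-12693182 for mirr, chr3R:26881396-26881596 for ro, chr3R:13875221-13875421 for E5 and chr3R:30912460-30912660 for Ptx1. Capitals mark GAGAG or its reverse complement CTCTC, and TTTATGG or TTTATTG. Runs of capitals are overlapping matches.
unc-4: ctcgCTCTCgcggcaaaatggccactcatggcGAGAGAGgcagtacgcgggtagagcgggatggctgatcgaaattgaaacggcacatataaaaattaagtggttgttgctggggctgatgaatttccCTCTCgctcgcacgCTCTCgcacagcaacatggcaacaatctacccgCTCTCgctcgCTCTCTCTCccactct
oc: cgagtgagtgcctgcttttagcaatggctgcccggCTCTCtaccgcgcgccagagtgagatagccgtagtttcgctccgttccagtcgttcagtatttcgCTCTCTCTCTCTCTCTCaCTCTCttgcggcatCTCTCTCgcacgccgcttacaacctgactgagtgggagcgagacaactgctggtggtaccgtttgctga
mirr: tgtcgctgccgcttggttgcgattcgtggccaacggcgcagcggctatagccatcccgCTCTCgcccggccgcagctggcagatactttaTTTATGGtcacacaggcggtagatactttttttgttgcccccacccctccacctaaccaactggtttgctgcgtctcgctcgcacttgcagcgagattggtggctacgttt
ro: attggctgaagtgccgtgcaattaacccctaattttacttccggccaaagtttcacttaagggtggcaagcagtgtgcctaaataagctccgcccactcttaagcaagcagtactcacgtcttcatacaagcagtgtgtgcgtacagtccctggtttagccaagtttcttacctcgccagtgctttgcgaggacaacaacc
E5: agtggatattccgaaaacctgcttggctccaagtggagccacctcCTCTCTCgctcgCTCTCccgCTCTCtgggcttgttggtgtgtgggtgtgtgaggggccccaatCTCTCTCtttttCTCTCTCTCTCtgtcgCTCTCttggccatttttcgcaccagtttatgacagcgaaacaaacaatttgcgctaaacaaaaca
Ptx1: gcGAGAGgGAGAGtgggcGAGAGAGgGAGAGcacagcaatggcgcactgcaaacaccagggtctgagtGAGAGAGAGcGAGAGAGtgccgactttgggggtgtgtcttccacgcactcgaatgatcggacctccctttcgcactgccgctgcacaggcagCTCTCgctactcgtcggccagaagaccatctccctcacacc

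In the IDR list unc-4 was the one promoter with a summit among 14 neuronal identity genes, where the share over all genes was 25.0%. unc-4 encodes a paired-like factor of postmitotic neurons in the nerve cord. Its summit lay 239 bp upstream at rank 1872 of the IDR list, with a signal of 316.6, and ranked 1318 in replicate 1 and 2297 in replicate 2. The replicates both held the summit well within their strongest peaks. No other IDR summit lay in the unc-4 territory, a pattern shared with mirr, Ptx1 and E5.

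Head and eye genes had 4 of 9 promoters with a summit, beside the 25.0% of all genes. The role groups are too small to compare, and no difference between them was tested. oc (orthodenticle), which patterns the anterior head and later acts in photoreceptors, had a summit 281 bp upstream at rank 2017 with a signal of 301.3. It ranked 2443 in replicate 1 and 1996 in replicate 2, so the replicates placed it alike. ro (rough), a regulator of photoreceptor identity, had a summit 325 bp upstream at rank 2913, with ranks 2309 and 3401 in replicates 1 and 2. That summit was also 238 bp upstream of T48, a gene of gastrulation that starts on the other side, and belongs to both promoters. so (sine oculis), a homeodomain factor required for eye formation, was the one gene with a pair of promoter summits, 211 bp apart. The stronger, 411 bp upstream, had rank 2407 and ranked 2624 and 2541 in replicates 1 and 2. The weaker, 200 bp upstream, had rank 4822 and ranked 24805 and 10917, far down in both replicates, where its q-values were above 0.05. Ptx1, of the Pitx family, had the weakest promoter summit of all, 194 bp upstream at rank 4986 with a signal of 153.7, and ranked 5412 and 5371.

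Among the 8 appendage and body wall genes, mirr and B-H2 had promoter summits. mirr, an Iroquois gene of the TALE class that acts in the dorsal eye, had its summit 557 bp upstream at rank 2785, ranking 1648 in replicate 1 and 3344 in replicate 2. B-H2, a Bar gene of sensory organs and photoreceptors, had its summit 211 bp upstream at rank 4066, ranking 3026 and 5226. Replicate 1 ranked both higher than replicate 2. The paralog B-H1 had a summit 149 bp upstream at rank 5641 of the pooled list, outside the IDR list, which ranked 6161 and 5912. The Bar promoters thus fell on opposite sides of the IDR limit, with ranks farther apart in replicate 1 than in replicate 2.

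In the group of other homeobox genes, PHDP had the strongest promoter summit of the 41 genes. It lay 441 bp upstream at rank 1408 with a signal of 377.7, and ranked 2730 in replicate 1 and 1014 in replicate 2. E5, a relative of the head gap gene ems, had a summit 405 bp upstream at rank 4916, ranking 6172 and 4945. None of the 5 genes of neuroectoderm and neural precursors (ind, vnd, pros, gsb and gsb-n) had a promoter summit in the IDR list, a count too small to read against the 25.0% of all genes.

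**Figure D3:**
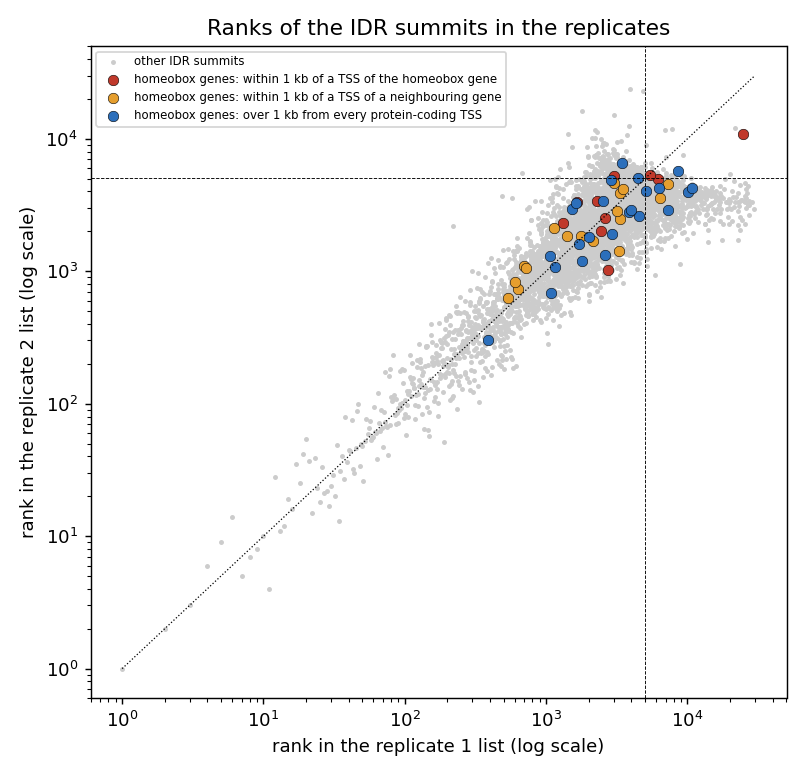
Rank in replicate 1 against rank in replicate 2 (log axes) for the 51 summits with a partner within 100 bp in both replicates, by position at own promoter, neighbouring promoter or distal, over grey points for other IDR summits, with dashed lines at rank 5033. Most points lie near the diagonal, and the weaker so promoter summit lies far out at 24805 and 10917.

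The replicates were then compared across the 52 summits. A summit within 100 bp was present in both full replicate lists for 51 of 52 (98.1%), against 92.1% of all IDR summits. With each replicate cut to its strongest 5033 peaks, 37 of 52 (71.2%) were in both, against 70.1%. For promoters, the strongest peaks of replicate 1 marked 10 of the 41 genes (24.4%, against 25.6% of all genes) and those of replicate 2 marked 7 (17.1%, against 24.5%). Both replicates marked unc-4, oc, mirr, so, ro and PHDP, while B-H2, Lim1, scro and zfh2 were marked by replicate 1 alone and E5 by replicate 2 alone. Of the 9 promoters in the IDR list, 6 thus passed in each replicate taken by itself. The Lim1 summit of replicate 1, at rank 4487, was the partner of an IDR summit 1050 bp upstream of Lim1. That IDR summit also had a partner in replicate 2, at rank 5070, just outside the strongest 5033.

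Bases around the promoter summits were counted after the printed windows had been seen. The 10 promoter windows of 201 bp had a GC content of 49.35% ± 11.5 (SD, n = 10 summits), against 34.64% ± 7.275 at the 2749 promoter summits of all genes. At 8 of the 10 the content was 45% or more, which held for 258 of the 2749 (9.39%). The 2 windows below that value were PHDP at 38.31% and the stronger so summit at 22.89%, and the highest was Ptx1 at 61.19%. The 18 neighbouring promoters (mean 35.27%) and the 24 distal summits (mean 35.47%) resembled IDR promoter summits at large. A like excess was present at the other homeobox genes (47.56% ± 10.42, n = 10 summits) and the Hox complex genes (47.12%, n = 7 summits), and the difference between these lists was not tested.

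Promoters of the homeobox genes were also richer in GC whether or not a peak was there. Within 500 bp of their 61 TSSs the mean was 47.99% ± 5.439 (SD), against 42.55% ± 4.906 over 19252 TSSs of all genes. The 20 promoter summits of the 41 genes that were in the pooled list but below the IDR limit averaged 51.02% GC, against 42.66% for 5693 such summits of all genes. How far sequence composition affected peak recovery was not tested.

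**Figure D4:**
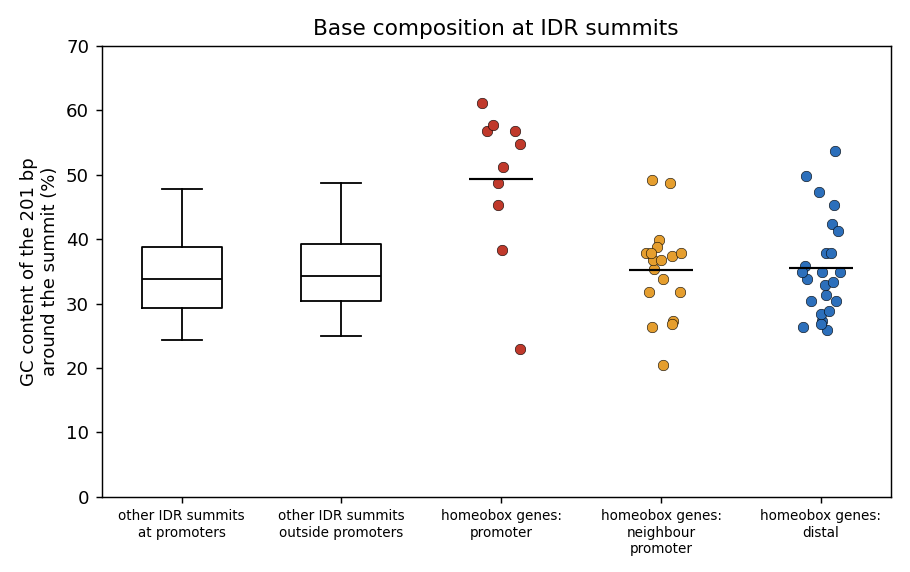
GC content (percent) of the 201 bp around each IDR summit: points for the 10 own-promoter, 18 neighbouring-promoter and 24 distal summits of the homeobox genes, with lines at their means, and boxes for the other IDR summits at promoters and outside them (median, quartiles, whiskers from the 5th to the 95th percentile). Own-promoter points mostly sit above 45%, whereas the other classes centre near 35%.

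GAGAG, the core of the element bound by the GAGA factor Trl, was counted on both strands and also after the sequences were seen. It occurred at 6 of the 10 promoter summits (60.0%), against 17.5% of all IDR promoter summits. At a GC content of 45% or more it occurred at 6 of 8 (75.0%), against 33.3%, and below that at 0 of 2, against 15.9%. unc-4 had 9 matches, oc, E5 and Ptx1 had 11 each and mirr had 1, with overlapping matches counted separately. B-H2 was the remaining summit with GAGAG, and its number of matches is not given here. ro, PHDP and so had none. The same letters were common at these promoters without regard to peaks: windows of 201 bp centred 300 bp upstream of the TSS held GAGAG at 32 of 61 TSSs (52.5%), against 20.3% over all genes. The other homeobox genes had it at 8 of 10 promoter summits (80.0%) and the Hox complex genes at 3 of 7 (42.9%). A match describes the letters only, and binding of Trl was not measured.

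Homeodomain core letters were counted next, over all 52 summits and at the promoters. TAATTA occurred within 100 bp of 7 of 52 summits (13.5%), against 19.5% of all IDR summits. In either flank, 400 to 500 bp to the side, it occurred at 7.69% of the 52 summits, against 10.9% of all IDR summits. None of the 10 promoter summits had it within 100 bp, against 20.2% of all promoter summits, a count too small to read as a lower share. TTTATGG or TTTATTG, letters favoured by Abd-B, occurred within 100 bp of 8 of 52 (15.4%), against 19.2%. In either flank they occurred at 21.2% of the 52 summits, against 11.8% of all IDR summits. Within 100 bp of the promoter summits these letters occurred at 3 of 10 (30.0%), against 18.0% of all IDR promoter summits. The 3 were mirr, B-H2 and the stronger so summit. TATCGATA, the element of the promoter factor DREF, occurred at 1 of 52, against 4.09% of all IDR summits.

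The 24 distal summits lay at 11 genes, with 10 in an intron of the homeobox gene, 10 between genes and 4 inside another gene. Their median distance to the nearest TSS was 6818 bp and their median rank 2814, close to the 2924 of all IDR summits outside promoters. Only 2 of 24 (8.33%) ranked within the strongest 1000, against 13.5% of that class. Replicate 2 ranked 17 of 24 (70.8%) higher than replicate 1 did, against 62.4%.

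These distal windows are printed as examples whose letters are referred to here, and are not typical of the 24: a far upstream summit at B-H2, introns of Lim1 and pros with TAATTA, and an upstream summit at OdsH with GAGAG repeats. They are chrX:17305612-17305812, chrX:8774203-8774403, chr3R:11368872-11369072 and chrX:17789688-17789888, all dm6, plus strand. Capitals mark TAATTA, and GAGAG or CTCTC.
B-H2 upstream: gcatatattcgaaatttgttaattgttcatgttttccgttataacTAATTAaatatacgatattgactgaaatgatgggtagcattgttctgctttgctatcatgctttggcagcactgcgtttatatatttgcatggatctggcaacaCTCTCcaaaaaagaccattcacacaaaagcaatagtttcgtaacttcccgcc
Lim1 intron: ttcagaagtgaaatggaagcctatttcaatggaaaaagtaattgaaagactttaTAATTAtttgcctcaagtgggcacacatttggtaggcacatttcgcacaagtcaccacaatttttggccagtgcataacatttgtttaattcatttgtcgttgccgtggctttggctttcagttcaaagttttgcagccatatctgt
pros intron: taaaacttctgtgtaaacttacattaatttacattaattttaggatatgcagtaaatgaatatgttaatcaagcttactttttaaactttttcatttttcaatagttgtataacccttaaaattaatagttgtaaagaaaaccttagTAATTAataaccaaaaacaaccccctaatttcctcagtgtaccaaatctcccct
OdsH upstream: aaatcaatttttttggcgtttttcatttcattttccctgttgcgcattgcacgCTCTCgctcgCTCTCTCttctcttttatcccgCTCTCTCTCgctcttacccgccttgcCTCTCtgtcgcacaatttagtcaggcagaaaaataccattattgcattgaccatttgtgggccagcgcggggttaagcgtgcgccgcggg

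All 5 LIM class genes (Awh, Lim1, Lim3, tup and ap) had an IDR summit in their territory, against 64.8% of all genes, and none had one at its own promoter, against 25.0%. With 5 genes these counts do not set the class apart, and the strongest peaks of replicate 1 included a Lim1 promoter summit. The territories held 14 summits, with those of Lim3 and ap all at neighbouring promoters. Lim1, which acts in leg and antenna development and in neurons, had 3 intronic summits at ranks 1303, 1677 and 2438. Another, at rank 4771, lay 1050 bp upstream, just beyond the promoter limit. Its partner in replicate 1, at rank 4487, was the Lim1 promoter summit of that replicate. Awh, required for the abdominal histoblasts and salivary gland imaginal cells, had intronic summits at ranks 2075, 2914 and 4721 and another at rank 3725, 16432 bp from the TSS. tup (islet), a gene of motor neurons and of dorsal closure, had a summit 9025 bp upstream at rank 732.

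**Figure D5:**
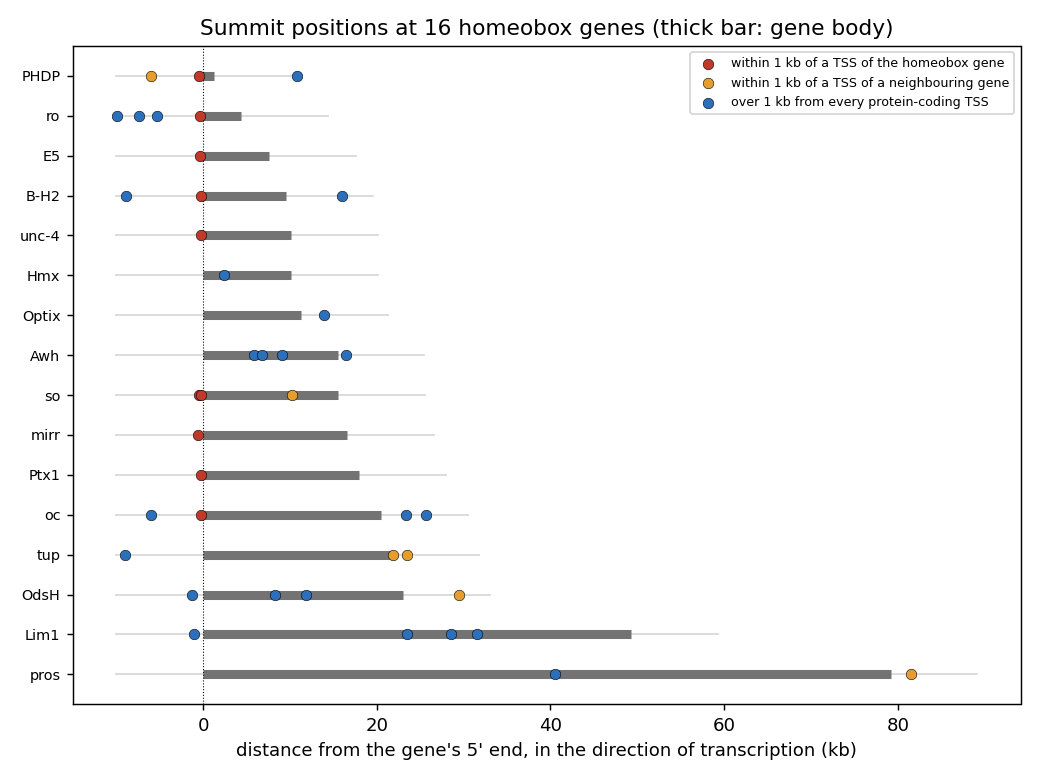
Position (kb from the gene's 5′ end, in the direction of transcription) of IDR summits at the 16 homeobox genes with an own-promoter or distal summit, with gene bodies as thick bars. Lim1 and Awh carry intronic summits, and ro carries 3 far upstream summits.

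The bearers of both a promoter and a distal summit were B-H2, oc, ro and PHDP. ro had 3 summits at 5353, 7412 and 9875 bp upstream, at ranks 1082, 2285 and 4933, all within T48. The T48 TSS was nearer to each, at 4790, 6849 and 9312 bp. oc had summits at rank 1844, 6026 bp upstream, and at ranks 1592 and 3835, 15807 and 18182 bp downstream. B-H2 had summits at rank 1196, 8869 bp upstream, and at rank 4486, 15944 bp downstream. The upstream summit lay nearer the TSS of CG5445, at 3242 bp. PHDP had the strongest of the distal summits, at rank 322, which lay 10786 bp away inside ken, a gene for a transcriptional repressor of JAK/STAT targets. The ken TSS was nearer to that summit, at 3381 bp.

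OdsH, a paired-like gene next to unc-4 that is known for hybrid male sterility, had intronic summits at ranks 2812 and 3082 and a further one at rank 4761, 1222 bp upstream. pros, which directs the fate of ganglion mother cells, had an intronic summit at rank 2815. Optix, a relative of so, had one at rank 4284, 4226 bp from the nearest TSS, and Hmx had one in an intron at rank 4843. With these the distal summits of all 11 genes are accounted for.

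The 18 summits at neighbouring promoters were the strongest class, with a median rank of 1768 and 5 of 18 (27.8%) within the strongest 1000. All IDR promoter summits had a median rank of 2171 and 25.2% within the strongest 1000. Of the 18, 17 lay upstream of the nearest TSS, at a median of 120 bp, closer than the own-promoter summits. Several of the neighbours are general cellular genes. A summit at rank 560 in the bsh territory lay at CG10628 and Dus3, and another at rank 905 in the pros territory lay at mgr and Irbp, which encode a prefoldin subunit and a Ku protein of DNA repair. Summits at ranks 677 and 921 in the tup territory lay at CG10602, the second shared with the mitochondrial ribosomal gene mRpL13. The rank 713 summit lay at cold and Ipk2 in the territories of both Gsc and Pph13. For 10 of the 41 genes (bsh, Gsc, Pph13, achi, vis, ara, ap, acj6, unpg and Lim3) neighbouring promoters carried the only summits in the territory. The share over all genes is not given here, so the count does not set these 10 genes apart. Of these, ap, which specifies the dorsal wing, had summits at rank 1756 by vlc and rank 1759 by Cndp2, and the Iroquois gene ara had one at rank 1749 by sowah. achi and vis, a neighbouring pair of TALE genes, shared a summit at rank 1674 by fdl. The summits by acj6 (rank 2688, at CG9164), unpg (rank 3712, at CG45085 and CG8026) and Lim3 (rank 4799, at CG10702) were weaker.

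In 15 of the 41 territories no IDR summit was present, and 11 of these had one in the pooled list. The strongest were an intronic summit of Dll, the master gene of limb formation, at pooled rank 5078, one near exex, a motor neuron gene, at rank 5152, and one near Rx, a brain and retina gene, at rank 5240. The Dll summit ranked 10601 in replicate 1 and 4221 in replicate 2, and the exex summit 29324 and 4561, so replicate 2 carried both. The Rx summit ranked 6861 in replicate 1 and had no partner in replicate 2. The best pooled ranks of the other 8 were 5464 at caup, 5641 at B-H1, 8331 at al, 8420 at pdm3, 9279 at vnd, 9455 at ind, 9780 at gsb-n and 17937 at hbn. Of these peaks, those of al, pdm3, vnd, ind, gsb-n and hbn did not reach q of 0.05. Just inside the IDR limit stood Ptx1 at rank 4986 and just outside it Dll at rank 5078, with signals of 153.7 and 151.5. In the pooled list 24 of the 41 genes had a promoter summit (58.5%, against 50.6% of all genes) and 37 a territory summit (90.2%, against 92.5%). With pooled peaks at q of 0.05 or less, 10 had a promoter summit (24.4%, against 28.8%) and 31 a territory summit, against 71.0% of all genes.

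No pooled summit lay in the territories of gsb, onecut, scro and zfh2; zfh2 was named after its values were seen. onecut had no summit in any list and gsb had a promoter summit at rank 28568 of replicate 1 alone, with 2 summits in its territory in replicate 1 and 1 in replicate 2. scro and zfh2 had promoter summits in replicate 1, at ranks 4140 and 3498, and none in replicate 2 or the pooled list. onecut and zfh2 lie on chromosome 4, where the pooled list held 3 peaks and 73 of 80 genes had no pooled summit. A low yield over the whole chromosome was thus present beside these 2 genes, and its part in their result was not tested.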

How the data were processed

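Peak lists from 2 biological replicates of Abd-B-GFP whole embryos, aged 4 to 20 h, were used as deposited. Per the labels, chromatin was sonicated to fragments of 200 to 800 bp and recovered with an antibody against GFP. Neither aligner nor caller is named in the sources used here. Coordinates are dm6, per the labels of the deposited files. The signal value is the authors' deposited score per peak, used only as a rank, and the q-values are deposited as −log10 q. The lists hold no read counts, so depth and counting precision are unknown. Replicates were pooled by the authors for the pooled list and the IDR list.

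Summits on 6 chromosome arms were assigned to genes of Ensembl release 115 (BDGP 6.54) with Python 3.11.15, numpy 2.4.6 and pandas 2.3.3; figures used matplotlib 3.10.9. A promoter was 1 kb around any TSS, a territory the gene body with 10 kb flanks, and a replicate partner a summit within 100 bp. The assignment was tested on simulated positions. Sequence came from RefSeq Release 6, 100 bp on either side of a summit. Each replicate taken alone used its strongest 5033 peaks. No test between groups was possible with 1 group, so shares stand beside those of all genes. The genes, lists and rules were chosen with earlier results of these data known, and GC content and GAGAG were added after the sequences were seen. The sequences of the other 4 promoter windows are not reported here. Genes were named when they had an IDR promoter summit, were among the 5 with most distal summits, had 1 of the 3 strongest pooled summits outside the IDR list, or had no pooled summit (the first 3 by alphabet); other genes named were chosen after their values were seen. No paired analysis was possible because there is 1 group.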

Additional observations from a re-analysis of the deposited data

How the results depend on the processing

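Taking replicate 1 or 2 alone moved promoter genes between 7 and 10, territory genes between 25 and 29, summits away from the own promoter between 42 and 48, density between 3.575 and 3.781 summits per 100 kb, the TAATTA share between 14.55% and 15.38%, promoter GC content between 47.33% and 48.26% and the GAGAG share between 57.14% and 60.0%. The peak limit mattered most: with the strongest 1000 IDR peaks 0 promoter genes, 6 territory genes, 7 such summits and 0.4813 per 100 kb were left, and with the strongest 2500 these were 4, 17, 21 and 1.719. Over all genes the promoter share fell as well, to 7.41% and 15.5%, and the territory share fell to 26.3% and 47.9%. Pooled peaks at q of 0.05 or less gave 66 such summits and 5.294 per 100 kb. A promoter of 5 kb gave 18 genes (43.9%, against 44.4% of all genes). Flanks of 5 kb gave 25 such summits and 20 kb gave 73. Gene bodies alone gave 6 territory genes, 11 summits and 1.58 per 100 kb, and leaving out summits at any promoter gave 24 summits. The share of all genes for gene bodies alone is not given here. Replicate support, 98.08% at 100 bp, was 80.77% at 50 bp, 100% at 250 bp, 71.15% with the strongest replicate peaks and 100% for the 25 summits among the strongest 2500. TAATTA, 13.46% within 100 bp, was 5.769% within 50 bp and 23.08% within 200 bp. The causes were not tested, beyond the smaller or larger windows and lists. No paired analysis was possible because there is 1 group. Peak lists without read counts, 2 replicates and no control embryos among the samples limit these results to where peaks were listed.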
